A study of Homo sapiens and Mus musculus with 69 samples.

Results

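KP1 is a small cell lung cancer (SCLC) cell line derived from a *Rb1*/*Trp53*-mutant mouse tumor, and TAS1440 is a reversible inhibitor of the histone demethylase LSD1. The data are poly(A) RNA-Seq profiles of KP1 cells cultured long-term, for more than 28 days, with TAS1440 at 100 nM or with the solvent DMSO. The comparison used the 3 libraries titled KP1 TAS1440 (4, 5 and 6) and the 3 titled KP1 DMSO (1, 2 and 3), 6 of the 69 libraries of the series, and took in every one of the 18501 genes of the mouse table. A further 3 KP1 libraries (7, 8 and 9) came from cells given TAS1440 together with the γ-secretase inhibitor DBZ at 10 µM (TAS1440 plus GSI), which blocks the cleavage that activates Notch receptors. KP1 is a single established line, all 3 groups carry its *Rb1* and *Trp53* mutations, and the cells were grown ex vivo, without stroma or immune cells. The labels do not say that the libraries of a group came from separate cultures. *P* values set a difference against the spread between these libraries, which may be technical.

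Most SCLC cells are neuroendocrine (NE): lineage transcription factors such as INSM1 maintain secretory granule and synaptic genes, while Notch signaling, which turns on HES1 and the neuronal repressor REST, moves NE cells toward a non-NE state. LSD1, recruited with CoREST by factors such as INSM1 and GFI1, removes methyl marks from histone H3 lysine 4 and keeps its target genes silent. NE SCLC cells are known for low levels of the antigen presentation machinery (APM), that is, MHC class I and the genes that generate and load its peptides.

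All values below are log2(RPKM + 1), so a difference of 1 is a doubling at high levels and less than the true change at low levels. Levels per library are given in the order 1, 2, 3 for DMSO, 4, 5, 6 for TAS1440 and 7, 8, 9 for TAS1440 plus GSI. The files hold no read counts. From the smallest values of rare genes, the relative depths of the 9 libraries lay between 0.871 and 1.07 times their median. The libraries listed 14730 to 15313 genes above 0. In such bulk samples, fewer cells of a type and less RNA per cell cannot be told apart.

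The treated libraries stood apart from each other more than the controls did. A gene entered the tests if 3 or more of the 9 libraries reached a value of 1, which 8260 genes did and 10241 did not (below the filter). Over these 8260 genes, Pearson's *r* between DMSO libraries was 0.976 to 0.996, between TAS1440 libraries 0.902 to 0.944, and between a TAS1440 and a DMSO library 0.729 to 0.754. The median SD of a gene was 0.109 within DMSO, 0.278 within TAS1440 and 0.192 within TAS1440 plus GSI. The tests took 1 spread per gene for all 3 groups. For genes that vary mainly among the treated libraries, such as *Krt7* and *Krt8*, the printed SE and *P* can therefore be too small. Of the 801 genes that fell, 471 (58.8%) had their highest TAS1440 level in library 6, whereas over all 8260 genes library 6 was highest for 39.3%. Interferon-stimulated genes were highest in library 5, for 44 of the 49 listed members, against 33.6% of all genes. Mitochondrial transcripts made up 8.36% of the summed RPKM in library 6 and 15.1% to 20.1% in the DMSO libraries. The last library of each group had that group's lowest share: 15.1% in library 3, 8.36% in library 6 and 15.9% in library 9. Whether libraries were matched between groups was not tested.

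The NE label held for the control cells: the 12 NE SCLC markers summed to 738 to 787 RPKM with DMSO, 10.5 to 89.9 with TAS1440 and 646 to 798 with TAS1440 plus GSI. Transcripts of the mutated genes were still read at gene level, *Rb1* at 0.91, 0.88 and 1.05 with DMSO and 0.48, 0.25 and 0.76 with TAS1440 and *Trp53* at 0.73, 0.81 and 0.80 with DMSO and 0.43, 0.96 and 0.23 with TAS1440, which does not check the mutations. Immune cell markers summed to 1.18 to 1.79 RPKM with DMSO and 0.578 to 1.38 with TAS1440, endothelial markers to 0.676 to 1.02 and 0.0306 to 0.155, and *Ptprc*, *Cdh5* and *Pou2f3*, defining genes of leukocytes, endothelium and tuft cell-like SCLC, stayed below 0.01 in every library. The 5 tuft cell-like SCLC markers in the table, all below the filter and overlapping between the groups, summed to 0.0308 to 0.317 RPKM with DMSO and 0.166 to 3.6 with TAS1440. Fibroblast markers summed to 1.47 to 4.81 RPKM with DMSO and 15.7 to 303 with TAS1440.

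With TAS1440, 1552 of the 8260 genes tested (18.8%) were called, 751 higher (9.09%) and 801 lower (9.7%), by limma at an adjusted *P* below 0.05 and a log2 fold change of at least 1 in size. Genes that met both limits are said here to have risen or fallen. The median log2 fold change over all genes tested was 0.02, and 3030 genes (36.7%) met the adjusted *P* alone. Counted over all 18501 genes of the table, 8.39% were called, 4.06% higher and 4.33% lower. These shares are the background for the gene lists below, whose members are all counted, including those below the filter on low values. List medians cover only the members tested. Genes hardly expressed with DMSO and with TAS1440 plus GSI passed the filter only through the TAS1440 libraries. This raises the medians of lists that hold them. Genes hardly expressed with TAS1440 passed only through the other groups, which lowers medians.

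**Figure D1:**
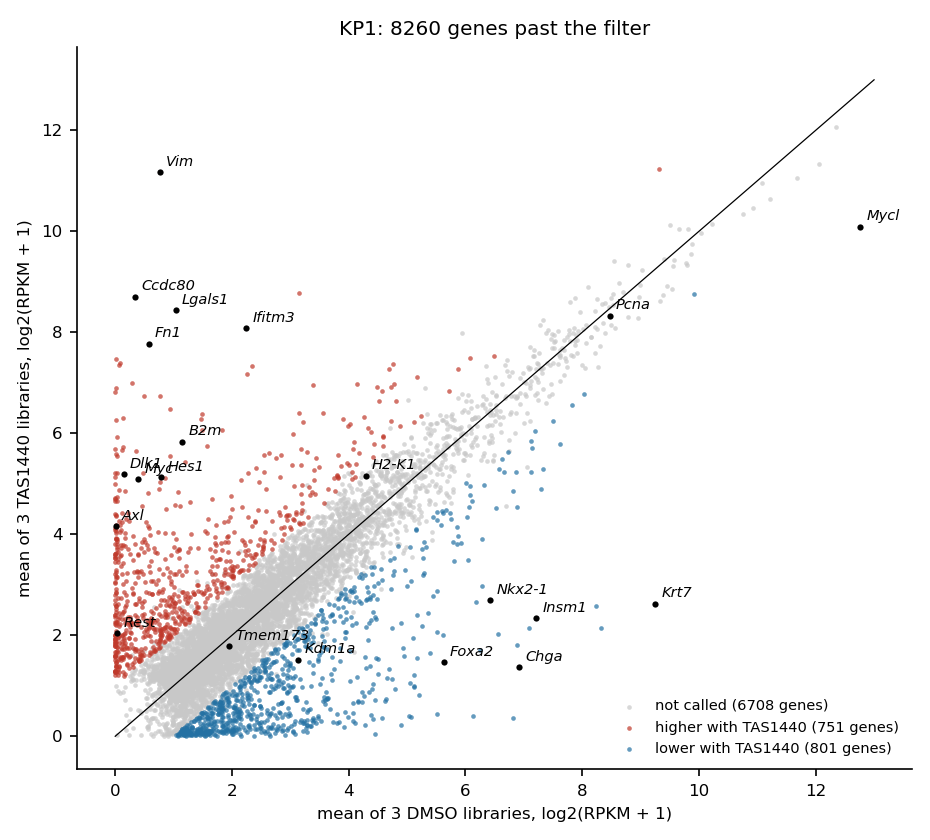
Mean level of each of the 8260 genes past the filter in the 3 DMSO libraries (x axis) and the 3 TAS1440 libraries (y axis), both in log2(RPKM + 1), with genes that rose in red (751), genes that fell in blue (801) and all others in gray. Most genes lie near the line of equal levels, *Vim*, *Ccdc80* and *Fn1* lie far above it, and *Krt7* and *Chga* far below it.

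Among genes whose groups did not overlap, *Vim*, the mesenchymal intermediate filament vimentin, rose most. Its level was 0.63, 1.04 and 0.62 with DMSO and 11.32, 10.85 and 11.35 with TAS1440 (log2 fold change 10.41 ± 0.55 (SE), adjusted *P* = 1.96e-06), and the gene lies on chromosome 2 from 13573927 to 13582826 (GRCm38). Next came *Ccdc80*, a secreted matrix protein, at 0.47, 0.29 and 0.23 with DMSO and 8.97, 7.62 and 9.54 with TAS1440 (log2 fold change 8.37 ± 0.42 (SE), adjusted *P* = 1.64e-06). *Slpi*, a secreted protease inhibitor, had 0, 0.035 and 0 with DMSO and 6.81, 7.96 and 7.66 with TAS1440, and *Spp1*, encoding osteopontin, had 0.044, 0.015 and 0.11 with DMSO and 8.20, 7.87 and 6.01 with TAS1440. All 4 were at about 1 or below in every control library and at 6 or above in every treated library. The other genes among the 15 that rose most were *Lgals1*, *Bgn*, *Fn1*, *Col12a1*, *Acta2*, *Fgf7*, *Cxcl12*, *Thbs1*, *Adamtsl3*, *Igfbp4* and *Pcolce*, of which *Acta2* was listed at 0 in all 3 DMSO libraries and the others rose by 5.89 to 7.41.

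The genes that fell most were led by *Krt7*, a simple-epithelium keratin, at 9.08, 9.13 and 9.53 with DMSO and 0, 1.88 and 6.01 with TAS1440 (log2 fold change -6.62 ± 1.23 (SE), adjusted *P* = 0.00249). The neuropeptide precursor *Cartpt* had 7.76, 7.94 and 4.75 with DMSO and 0, 0 and 1.06 with TAS1440 (log2 fold change -6.47 ± 0.90 (SE), adjusted *P* = 0.000444). The synaptic ligand *Nxph1* had 6.70, 6.75 and 4.91 with DMSO and 0, 0.15 and 1.03 with TAS1440, and the transcriptional co-regulator *Cited4* had 8.04, 8.19 and 8.49 with DMSO and 0.68, 1.68 and 5.38 with TAS1440. *Cartpt* and *Nxph1* were near 0 in libraries 4 and 5, and all 4 genes were highest in library 6 among the treated. Further genes with large decreases were *Chga*, *Bex2*, *Cer1*, *Krt8*, *Insm1*, *Clca3b*, *Celf3*, *Gfra4*, *Rims3* and *Cplx2*, with log2 fold changes of -5.55 to -4.53.

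LSD1 itself, encoded by *Kdm1a* on chromosome 4 from 136550540 to 136602723, fell at the transcript level, from 3.02, 2.98 and 3.41 with DMSO to 1.30, 1.68 and 1.58 with TAS1440 (log2 fold change -1.62 ± 0.21 (SE), adjusted *P* = 0.000265). Of the 16 listed genes of the LSD1 and CoREST complex, 1 rose, 4 fell, 8 passed the filter without a call and 3 were below it, with a median of -0.43. *Gfi1*, a repressor that recruits LSD1, went from 2.86, 2.93 and 2.71 to 0.63, 0.44 and 0.93 (log2 fold change -2.17 ± 0.27 (SE), adjusted *P* = 0.000232), and *Insm1*, which recruits it in NE cells, from 7.19, 7.25 and 7.20 to 0.17, 2.14 and 4.73 (log2 fold change -4.87 ± 0.89 (SE), adjusted *P* = 0.00236). The corepressor *Rcor2* fell by 1.67, while *Rcor1*, *Hdac1* and *Hdac2*, shared by many repressor complexes, had log2 fold changes of -0.19, adjusted *P* = 0.307, -0.18, adjusted *P* = 0.583 and -0.43, adjusted *P* = 0.069. The single member that rose was *Rest*, on chromosome 5 from 77265491 to 77286432: it was 0.034, 0.025 and 0.033 with DMSO and 2.48, 1.99 and 1.65 with TAS1440 (log2 fold change 2.01 ± 0.19 (SE), adjusted *P* = 4.72e-05), so a transcript close to 0 in the controls was present in all treated libraries.

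Both main Notch receptors were near 0 in the controls. *Notch2* (chromosome 3 from 98013527 to 98150361) rose, with 0.18, 0.20 and 0.11 with DMSO and 2.21, 1.49 and 1.83 with TAS1440 (log2 fold change 1.68 ± 0.17 (SE), adjusted *P* = 5.8e-05). *Notch1* (chromosome 2 from 26457903 to 26516663) was 0.064, 0.044 and 0.035 with DMSO and 1.45, 1.33 and 0.95 with TAS1440, also without overlap, but only 2 libraries reached 1, so the filter left it out. Fitted without the filter, where 8.77% of 18197 genes were called, it gave log2 fold change 1.20 ± 0.13 (SE), adjusted *P* = 0.000779. *Notch3* was 0.0096, 0.0075 and 0.0022 with DMSO and 0.30, 0.035 and 0.27 with TAS1440 and *Notch4* 0.18, 0.22 and 0.15 with DMSO and 0.019, 0.011 and 0.056 with TAS1440, both low throughout. The ligands moved the other way: of 7 listed, 4 fell, 1 rose and 1 each was tested without a call or below the filter (median -1.41). *Dll3*, an inhibitory ligand typical of NE SCLC, was 2.06, 2.13 and 2.62 with DMSO and 0.031, 0.081 and 0.51 with TAS1440 (log2 fold change -2.06 ± 0.35 (SE), adjusted *P* = 0.00139), and *Dll4*, an activating ligand, was 2.71, 2.72 and 2.42 with DMSO and 0.053, 0.026 and 0.47 with TAS1440 (log2 fold change -2.43 ± 0.25 (SE), adjusted *P* = 7.97e-05). *Dll1* and *Jag2* fell by 1.76 and 1.07 (*Jag2* was not called without library 4 or 6). The exception was *Dlk1*, a noncanonical ligand, which went from 0.09, 0.25 and 0.10 to 5.64, 5.36 and 4.56 (log2 fold change 5.04 ± 0.24 (SE), adjusted *P* = 1.51e-06).

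Genes known as Notch targets did not move as a block. Of the 13 listed 4 rose, 1 fell, 2 were tested without a call and 6 lay below the filter. *Hes1*, the best-known target, on chromosome 16 from 30064384 to 30067796, was 0.87, 0.93 and 0.56 with DMSO and 4.64, 5.42 and 5.33 with TAS1440 (log2 fold change 4.34 ± 0.23 (SE), adjusted *P* = 2.08e-06). *Ccnd1* and *Myc*, which also respond to many other pathways, went from 0.21, 0.13 and 0.01 to 3.85, 5.17 and 4.25 (log2 fold change 4.31 ± 0.28 (SE), adjusted *P* = 5.84e-06) and from 0.63, 0.49 and 0.059 to 5.65, 6.09 and 3.52 (log2 fold change 4.69 ± 0.57 (SE), adjusted *P* = 0.0002), and *Bcl6* rose by 1.42. By contrast *Hey1* (1.66, 1.66 and 1.60 with DMSO and 1.21, 2.43 and 2.22 with TAS1440, adjusted *P* = 0.437) and the feedback inhibitor *Nrarp* (3.30, 3.28 and 2.95 with DMSO and 0.77, 2.79 and 2.46 with TAS1440, adjusted *P* = 0.0636) were not called, and *Dtx1* fell (log2 fold change -1.83 ± 0.17 (SE), adjusted *P* = 4.06e-05). *Hes5* was 0.38, 0.37 and 0.31 with DMSO and 0, 0 and 0.11 with TAS1440, below the filter and lower in every treated library. Of 21 genes that process Notch or act with it, 3 fell (the fringe glycosyltransferases *Lfng*, -2.33, and *Mfng*, -2.15, and the corepressor *Spen*, -1.26) and none rose. The γ-secretase subunit *Psenen* had a log2 fold change of 0.26, adjusted *P* = 0.354.

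**Figure D2:**
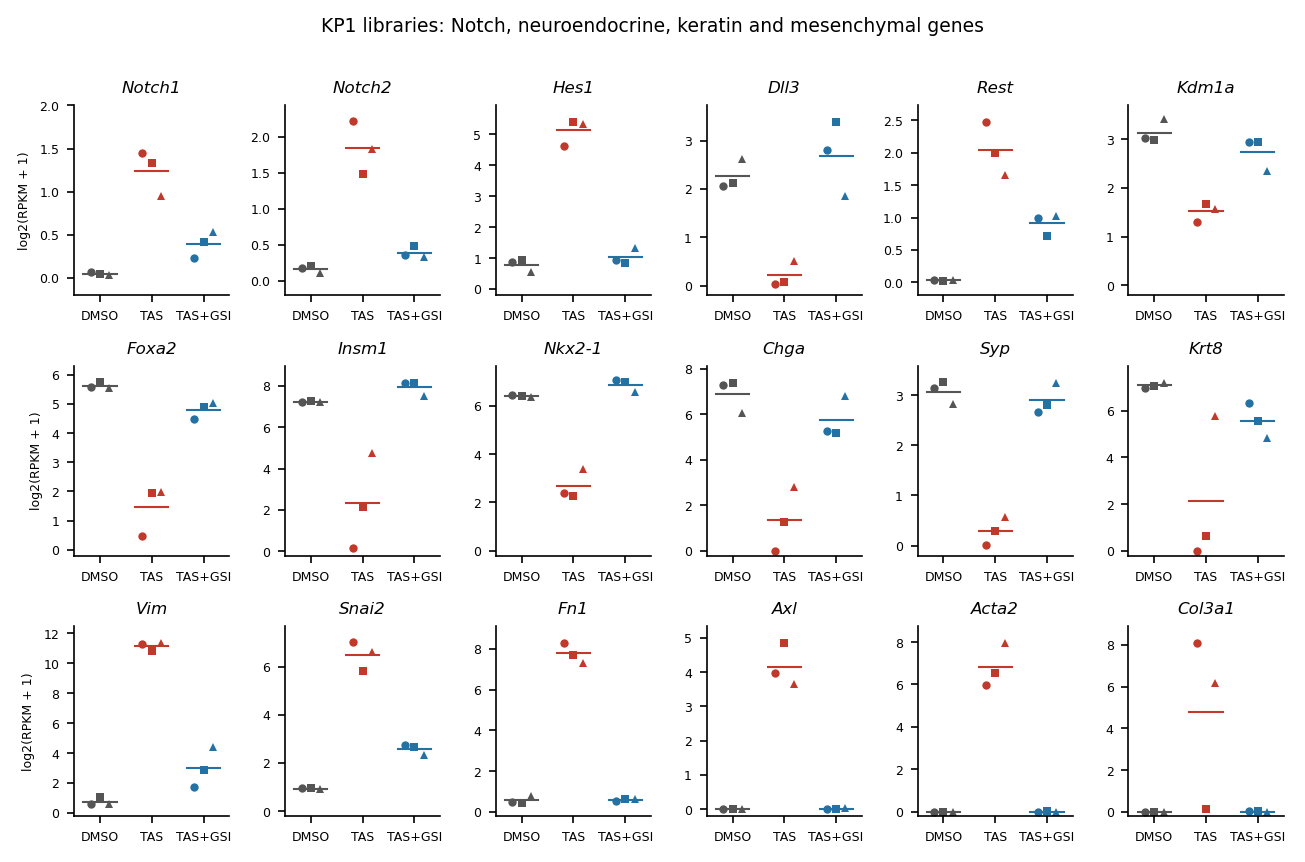
Levels in log2(RPKM + 1) (y axes, each with its own range) of 18 genes chosen with the results known, in the 9 KP1 libraries grouped as DMSO, TAS1440 (TAS) and TAS1440 plus GSI (x axes). Each point is 1 library (circle, square and triangle in title order) and the line is the group mean. *Fn1*, *Axl* and *Acta2* are above 3 in the TAS1440 points and below 1 in the others, *Insm1* and *Krt8* spread widely among them, and *Col3a1* is near 0 in library 5.

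The NE program fell across its regulators, granule genes and synaptic genes. Of 26 NE lineage transcription factors in the table, 11 fell, 1 rose, 5 were tested without a call and 9 were below the filter (median of those tested -1.57). The lung lineage factor *Nkx2-1* had 6.46, 6.41 and 6.38 with DMSO and 2.41, 2.28 and 3.39 with TAS1440 (log2 fold change -3.73 ± 0.29 (SE), adjusted *P* = 1.36e-05) and the endoderm pioneer factor *Foxa2* 5.59, 5.75 and 5.54 with DMSO and 0.45, 1.95 and 1.98 with TAS1440 (log2 fold change -4.16 ± 0.38 (SE), adjusted *P* = 3.4e-05). *Prox1*, a developmental regulator, and *Hes6*, a neurogenic member of the HES family, fell by 3.07 and 2.35 (*Hes6* was not called without library 1, 2, 3, 4 or 5 or with no filter). For *Nkx2-1* and *Foxa2* every treated library lay below every control. *Sox4* was the member that rose (3.93, 4.01 and 4.04 with DMSO and 6.05, 6.52 and 5.87 with TAS1440, log2 fold change 2.16 ± 0.23 (SE), adjusted *P* = 9.26e-05), *Sox2* went from 3.91, 3.92 and 4.17 to 1.17, 2.99 and 4.17 without a call (adjusted *P* = 0.182), and *Nfib* had 2.48, 2.50 and 2.54 with DMSO and 2.54, 2.07 and 2.36 with TAS1440 (adjusted *P* = 0.375).

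Of 30 secretory granule genes, 12 fell and none rose, with 4 tested without a call and 14 below the filter (median -2.60). *Chga*, encoding the granule protein chromogranin A, on chromosome 12 from 102554969 to 102565028, was 7.29, 7.38 and 6.07 with DMSO and 0.009, 1.28 and 2.82 with TAS1440 (log2 fold change -5.55 ± 0.71 (SE), adjusted *P* = 0.000272). *Calca*, encoding calcitonin gene-related peptide, was 4.24, 4.27 and 3.48 with DMSO and 0.16, 0.19 and 0.78 with TAS1440 (log2 fold change -3.62 ± 0.40 (SE), adjusted *P* = 0.000114), and the granule receptor *Ptprn* was 4.66, 4.72 and 3.49 with DMSO and 0.057, 0.37 and 0.24 with TAS1440 (log2 fold change -4.07 ± 0.46 (SE), adjusted *P* = 0.000137). The prohormone convertase *Pcsk1* and the neurotrophin-induced peptide precursor *Vgf* fell by 3.12 and 3.14. Carboxypeptidase E (*Cpe*) and *Pam*, which process peptides in many secretory cells, were not called (0.23, adjusted *P* = 0.465 and -0.69, adjusted *P* = 0.146), and *Scg2* was kept in 1 treated library (4.69, 4.81 and 2.76 with DMSO and 3.83, 0.098 and 1.05 with TAS1440, adjusted *P* = 0.0863). DMSO library 3 was below libraries 1 and 2 for *Chga*, *Calca*, *Ptprn* and *Scg2*, so the controls were not uniform for this set, yet the first 3 did not overlap between groups.

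Among 46 synaptic and neuronal genes, 23 fell, none rose, 2 were tested without a call and 21 were below the filter (median -1.79). Of those 21, 20 had every treated library below every control, against 20.6% of all genes below the filter. *Celf3*, a neuronal RNA-binding protein, was 4.93, 4.86 and 4.90 with DMSO and 0, 0.12 and 0.56 with TAS1440 (log2 fold change -4.67 ± 0.20 (SE), adjusted *P* = 7.39e-07). The synaptic vesicle regulator *Cplx2* was 6.40, 6.50 and 6.80 with DMSO and 1.41, 1.35 and 3.33 with TAS1440 (log2 fold change -4.53 ± 0.47 (SE), adjusted *P* = 7.7e-05), and *Nefl*, the light neurofilament, 4.03, 4.14 and 5.06 with DMSO and 0, 0.13 and 0.89 with TAS1440 (log2 fold change -4.07 ± 0.37 (SE), adjusted *P* = 3.37e-05). *Rundc3a* and *Ina* fell by 3.93 and 3.37. *Vamp2*, a vesicle SNARE found in many cell types, fell less and kept a level of 3.10, 3.17 and 3.57 (log2 fold change -1.50 ± 0.18 (SE), adjusted *P* = 0.000157). Library 6 had the highest treated value for 31 of the 46 genes, and all 3 treated libraries lay below the controls for *Celf3*, *Cplx2*, *Nefl* and *Vamp2*.

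**Figure D3:**
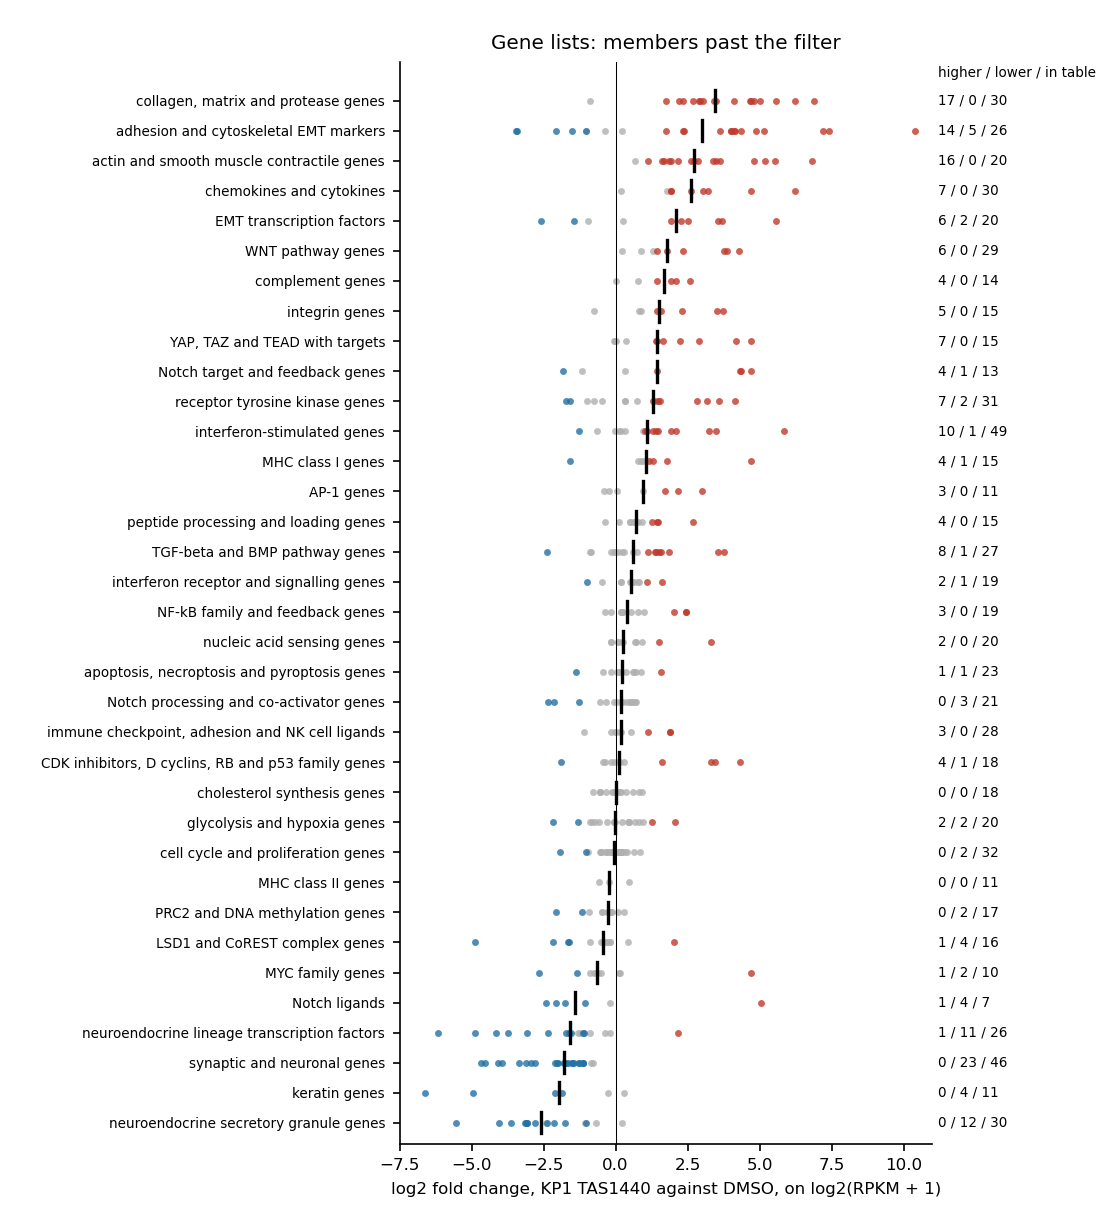
Log2 fold changes on the log2(RPKM + 1) scale (x axis) of the members past the filter in each of 35 gene lists (y axis), 1 point per gene, red if it rose, blue if it fell and gray otherwise, with the median of the fitted values as a black bar. The numbers at the right give members that rose, members that fell and members in the table. Matrix, EMT and contractile lists lie at the top and NE, keratin and synaptic lists at the bottom.

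Simple-epithelial genes fell together with the NE genes. *Krt8*, a simple-epithelium keratin, was 6.99, 7.08 and 7.19 with DMSO and 0.012, 0.65 and 5.77 with TAS1440 (log2 fold change -4.94 ± 1.24 (SE), adjusted *P* = 0.0122), and its partner *Krt18* was 6.03, 6.08 and 5.68 with DMSO and 2.36, 3.83 and 5.29 with TAS1440 (log2 fold change -2.10 ± 0.60 (SE), adjusted *P* = 0.0222). With *Krt7* and *Krt17* (-1.85), 4 of 11 listed keratins fell and none rose. Library 6 was closest to the controls and library 4 farthest from them, and *Krt18* was not called without library 1, 2 or 5 or with no filter. *Epcam*, an epithelial adhesion molecule, was 4.19, 4.29 and 4.32 with DMSO and 0.03, 0.47 and 1.89 with TAS1440 (log2 fold change -3.47 ± 0.46 (SE), adjusted *P* = 0.000341). The junction genes *Cldn7*, *Dsp*, *Cdh1* and *Ocln* fell by 3.44, 2.07, 1.51 and 1.01 (*Ocln* was not called without library 2, 4 or 5 or after quantile normalization), while *Cldn3*, *Jup* and *Tjp1* were not called (-1.01, adjusted *P* = 0.115, -0.37, adjusted *P* = 0.466 and 0.21, adjusted *P* = 0.199). Of 7 lung epithelial markers 1 fell, 1 was tested without a call and 5 were below the filter, and their summed level was 9.74 to 15.2 RPKM with DMSO and 0.918 to 16.8 with TAS1440, overlapping between the groups. The one that fell was *Sftpc*, encoding surfactant protein C (3.18, 3.36 and 2.72 with DMSO and 0, 0.029 and 0.11 with TAS1440, log2 fold change -3.04 ± 0.19 (SE), adjusted *P* = 4.54e-06), and the one without a call was *Hopx*, an alveolar homeobox gene (2.42, 2.36 and 1.81 with DMSO and 2.77, 0.32 and 4.11 with TAS1440, adjusted *P* = 0.861).

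Of 20 epithelial-mesenchymal transition (EMT) regulators, 6 rose and 2 fell, 2 were tested without a call and 10 were below the filter (median 2.08). *Snai2*, the repressor SLUG, was 0.94, 0.95 and 0.91 with DMSO and 7.02, 5.83 and 6.62 with TAS1440 (log2 fold change 5.55 ± 0.28 (SE), adjusted *P* = 1.57e-06). *Snai1* was 0.11, 0.14 and 0.043 with DMSO and 2.83, 3.73 and 4.81 with TAS1440 (log2 fold change 3.69 ± 0.40 (SE), adjusted *P* = 9.69e-05), *Twist1* was 0.85, 0.90 and 0 with DMSO and 4.51, 3.75 and 4.12 with TAS1440 (log2 fold change 3.54 ± 0.48 (SE), adjusted *P* = 0.000374), and *Sox9* and *Prrx1*, factors of mesenchymal and stem-like cells, rose by 2.50 and 2.26. For *Snai1*, *Snai2* and *Twist1* all 3 treated libraries lay above all controls. The epithelial splicing regulators *Esrp1* and *Esrp2* were the members that fell (-1.45 and -2.59). *Zeb1* and *Zeb2*, central EMT factors elsewhere, stayed low: *Zeb1* was 0.44, 0.44 and 0.32 with DMSO and 0.69, 0.60 and 0.61 with TAS1440 and *Zeb2* 0.057, 0.058 and 0.032 with DMSO and 0.82, 0.93 and 0.57 with TAS1440, both below the filter and both without overlap.

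Mesenchymal effectors rose widely. In the list of adhesion and cytoskeletal EMT markers 14 of 26 rose and 5, the epithelial genes above, fell (median 3.00, or 2.37 without *S100a11*, listed at 0 in all 3 DMSO libraries). *Lgals1*, encoding the secreted lectin galectin-1, was 1.24, 1.13 and 0.74 with DMSO and 7.98, 8.38 and 8.98 with TAS1440 (log2 fold change 7.41 ± 0.27 (SE), adjusted *P* = 3.14e-07). Fibronectin, *Fn1* on chromosome 1 from 71585520 to 71653200, was 0.49, 0.45 and 0.79 with DMSO and 8.29, 7.72 and 7.31 with TAS1440 (log2 fold change 7.20 ± 0.23 (SE), adjusted *P* = 2.24e-07). The receptor tyrosine kinase *Axl* was 0.0056, 0.011 and 0 with DMSO and 3.97, 4.85 and 3.66 with TAS1440 (log2 fold change 4.15 ± 0.25 (SE), adjusted *P* = 4.36e-06), and the hyaluronan receptor *Cd44* was 0.70, 0.79 and 0.17 with DMSO and 2.10, 2.48 and 2.32 with TAS1440 (log2 fold change 1.75 ± 0.20 (SE), adjusted *P* = 0.000133). For *Cd44* the change was smaller, and it was again seen in each treated library. *S100a6* and *Anxa2*, calcium-binding proteins of motile cells, rose by 4.89 and 4.11. *Cdh2*, N-cadherin, stayed at 0.57, 0.83 and 0.54 with TAS1440 and 0.78, 0.84 and 0.73 with DMSO, below the filter and with overlapping groups.

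Of 30 collagen, matrix and protease genes, 17 rose and none fell. Of the rest 1, the laminin gene *Lamb3*, was tested without a call, and 12 were below the filter, 8 of them with every treated library above every control (16.9% of all genes below the filter). The median of those tested was 3.44 (3.41 without *Col6a2*, listed at 0 in DMSO). Members such as *Col12a1* passed the filter only through the TAS1440 libraries, which raises this median. *Col12a1* was 0.013, 0.0062 and 0.021 with DMSO and 7.40, 7.64 and 5.64 with TAS1440 (log2 fold change 6.88 ± 0.43 (SE), adjusted *P* = 5.05e-06) and the matricellular protein *Thbs1* 0.47, 0.53 and 0.50 with DMSO and 6.41, 5.95 and 7.85 with TAS1440 (log2 fold change 6.24 ± 0.40 (SE), adjusted *P* = 5.84e-06). *Postn*, *Lox* and *Col6a1*, which build and cross-link the matrix, rose by 5.00, 4.81 and 5.58. The fibrillar collagens differed between treated libraries: *Col3a1* was 8.07, 0.13 and 6.16 and *Col1a2* 1.89, 0.031 and 5.60, near 0 in library 5, with DMSO values of 0 in all 3 and 0.074, 0.066 and 0.034. Both were below the filter. *Col6a1* (7.08, 2.51 and 7.21) and *Postn* (6.88, 2.38 and 5.75) were likewise lowest in library 5, whereas basement membrane genes were not: *Col4a1* was 0.81, 0.78 and 0.56 with DMSO and 3.46, 4.10 and 3.35 with TAS1440 (log2 fold change 2.92 ± 0.21 (SE), adjusted *P* = 9.23e-06) and *Lama5* 5.08, 5.00 and 4.27 with DMSO and 6.03, 8.54 and 6.34 with TAS1440 (log2 fold change 2.19 ± 0.57 (SE), adjusted *P* = 0.0145; was not called without library 3).

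Of 8 fibroblast markers, whose summed levels are given above, 1, *Pdgfrb*, rose (0.029, 0.045 and 0.049 with DMSO and 3.91, 3.94 and 3.07 with TAS1440, log2 fold change 3.60 ± 0.21 (SE), adjusted *P* = 3.5e-06), *Pdgfra* and *Thy1* were tested without a call (adjusted *P* = 0.199 and adjusted *P* = 0.324), and *Col1a1*, *Col1a2*, *Col3a1*, *Dcn* and *Lum* were below the filter. *Dcn* was 0.027, 0.0089 and 0.0026 with DMSO and 1.85, 0.12 and 3.02 with TAS1440. Library 5, lowest for these 5 genes, was near the others for *Vim*, *Fn1*, *Axl* and *Pdgfrb*. What part fibroblast-type expression has in the matrix result was not tested.

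Contractile and adhesion genes also rose. Of 20 actin-associated genes 16 rose and none fell (median 2.74, or 2.60 without *Acta2* and *Cnn1*, listed at 0 in DMSO). Smooth muscle actin, *Acta2*, was 0 in all 3 with DMSO and 5.99, 6.55 and 7.94 with TAS1440 (adjusted *P* = 3.5e-06), and *Flnc*, an actin crosslinker, was 0.045, 0.015 and 0.017 with DMSO and 6.17, 6.16 and 4.32 with TAS1440 (log2 fold change 5.52 ± 0.42 (SE), adjusted *P* = 1.28e-05). The myosin light chain *Myl9* and the calponin *Cnn2* rose by 4.81 and 5.19. Of 15 integrins 5 rose and none fell (median 1.51, or 1.45 without *Itgav*, listed at 0 in DMSO). The fibronectin receptor chain *Itga5* was 0.031, 0.053 and 0 with DMSO and 3.36, 3.99 and 3.87 with TAS1440 (log2 fold change 3.71 ± 0.16 (SE), adjusted *P* = 7.92e-07), and its partner *Itgb1* was 2.61, 2.65 and 2.52 with DMSO and 4.63, 5.43 and 4.63 with TAS1440 (log2 fold change 2.31 ± 0.25 (SE), adjusted *P* = 0.000104). *Itgb5* and *Itga7* rose by 1.57 and 1.45.

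Of 15 genes of the YAP and TAZ pathway, 7 rose and none fell (median 1.45, or 1.42 without *Ankrd1*), including the co-activators *Yap1*, from 0.016, 0.018 and 0.03 to 1.55, 1.80 and 1.67 (log2 fold change 1.65 ± 0.10 (SE), adjusted *P* = 3.81e-06), and *Wwtr1*, which encodes TAZ (log2 fold change 1.45 ± 0.10 (SE), adjusted *P* = 6.89e-06). Their known target *Ankrd1* was 0 in all 3 with DMSO and 4.01, 6.45 and 3.68 with TAS1440 (adjusted *P* = 0.000222), and *Amotl2*, *Ajuba* and the DNA-binding partner *Tead2* rose by 4.17, 2.91 and 2.25. *Lats1* and *Nf2*, upstream kinase and scaffold genes, were not called (0.03, adjusted *P* = 0.899 and -0.04, adjusted *P* = 0.871). The list held 18 genes, but *Ccn1*, *Ccn2* and *Vgll3* were not found under these symbols and were not sought under others.

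Signaling genes showed rises in several receptor families. Of 31 receptor tyrosine kinase genes 7 rose, *Axl* and *Pdgfrb* above among them, and 2 fell. *Epha2* was 0.35, 0.43 and 0.14 with DMSO and 3.40, 4.55 and 2.52 with TAS1440 (log2 fold change 3.19 ± 0.40 (SE), adjusted *P* = 0.000251), *Ephb4*, *Tyro3* and *Erbb2* rose by 2.84, 1.55 and 1.47, *Ephb2* fell (-1.58), and the neural crest receptor *Ret* fell (1.95, 2.03 and 2.35 with DMSO and 0.091, 0.33 and 0.75 with TAS1440, log2 fold change -1.72 ± 0.28 (SE), adjusted *P* = 0.00118). In the TGF-β and BMP list 8 of 27 rose and 1 fell. *Inhba*, the activin A subunit, was 0.0058, 0 and 0 with DMSO and 2.37, 4.77 and 3.56 with TAS1440 (log2 fold change 3.56 ± 0.46 (SE), adjusted *P* = 0.000299), *Bmp4* was 1.18, 1.25 and 0.80 with DMSO and 5.11, 3.99 and 5.41 with TAS1440 (log2 fold change 3.76 ± 0.40 (SE), adjusted *P* = 9e-05), and *Tgfb1*, *Tgfb3*, *Smad3* and the feedback genes *Skil* and *Smad7* rose by 1.59, 1.86, 1.37, 1.50 and 1.12 (*Smad7* was not called without library 5). *Id4*, which restrains neural differentiation factors, fell (-2.38) and *Id3* rose (1.39). Of 29 WNT pathway genes 6 rose and none fell, 20 being below the filter. These were mainly receptors: *Fzd1*, *Fzd2*, *Fzd5* and *Fzd7* rose by 4.27, 3.78, 2.34 and 3.86, with *Fzd7* at 0.13, 0.20 and 0.19 with DMSO and 4.56, 3.71 and 3.82 with TAS1440. The ligand *Wnt5a* and the secreted inhibitor *Sfrp1* also rose (1.45 and 1.78).

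Antigen presentation changed gene by gene. *B2m*, the invariant light chain of all class I molecules, on chromosome 2 from 122147686 to 122153083, was 1.21, 1.34 and 0.89 with DMSO and 6.02, 5.59 and 5.90 with TAS1440 (log2 fold change 4.69 ± 0.21 (SE), adjusted *P* = 1.02e-06). The classical heavy chains moved much less: *H2-K1* was 4.51, 4.49 and 3.86 with DMSO and 4.64, 5.38 and 5.46 with TAS1440 (log2 fold change 0.87 ± 0.27 (SE), adjusted *P* = 0.03), and *H2-D1* was 5.02, 5.15 and 4.26 with DMSO and 5.44, 5.72 and 5.57 with TAS1440 (log2 fold change 0.77 ± 0.29 (SE), adjusted *P* = 0.0668). For both, every treated library lay above every control, as for 26.1% of all genes tested, but neither was called. Both were already well expressed in the controls, unlike *B2m*. Of 15 class I genes 4 rose (*B2m*, *H2-M3*, *H2-Q4* and *H2-T22*, the last 3 nonclassical and by 1.78, 1.31 and 1.17, *H2-T22* was not called without library 1, 3 or 6), 1 fell (*Cd1d1*, the lipid-presenting molecule, 4.80, 4.65 and 3.50 with DMSO and 2.66, 3.24 and 2.25 with TAS1440, log2 fold change -1.60 ± 0.42 (SE), adjusted *P* = 0.0145, was not called without library 1 or 2), 3 were tested without a call and 7 were below the filter (median 1.07). Class I heavy chains are related in sequence, to differing degrees, so the division of reads between them by the authors' quantification is uncertain.

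Of 15 peptide processing and loading genes 4 rose and none fell. Tapasin, *Tapbp*, which holds class I molecules at the peptide transporter, was 2.77, 2.90 and 1.97 with DMSO and 5.19, 4.83 and 5.70 with TAS1440 (log2 fold change 2.69 ± 0.34 (SE), adjusted *P* = 0.000233). The immunoproteasome subunits *Psmb8* and *Psmb10* were 1.74, 1.59 and 0.41 with DMSO and 2.76, 2.53 and 2.74 with TAS1440 (log2 fold change 1.43 ± 0.44 (SE), adjusted *P* = 0.03) and 1.18, 0.96 and 1.12 with DMSO and 2.63, 2.68 and 2.32 with TAS1440 (log2 fold change 1.46 ± 0.29 (SE), adjusted *P* = 0.00334), and the proteasome activator *Psme2* rose by 1.26. *Psmb8* was not called without library 3, 4, 5 or 6, with no filter or with a pseudocount of 0.1, and DMSO library 3 was well below the other controls for it. The transporter genes were not called: *Tap1* was 0.99, 0.99 and 0.35 with DMSO and 1.42, 1.34 and 1.45 with TAS1440 (log2 fold change 0.63 ± 0.19 (SE), adjusted *P* = 0.0303) and *Tap2* was 1.35, 1.42 and 0.41 with DMSO and 2.24, 1.27 and 1.97 with TAS1440 (log2 fold change 0.76 ± 0.31 (SE), adjusted *P* = 0.0845). *Nlrc5*, the class I transactivator, was 0.011, 0.013 and 0.0037 with DMSO and 0.057, 0.036 and 0.0047 with TAS1440, and *Ciita*, the class II transactivator, stayed at or below 0.05 in every library. None of 11 class II genes was called, but only 3 were tested. Of the 8 below the filter, 4 had every treated library above every control (16.9% of all genes below the filter). The invariant chain *Cd74* was 0, 0.0098 and 0 with DMSO and 3.61, 0.68 and 1.30 with TAS1440, below the filter because 2 libraries reached 1.

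**Figure D4:**
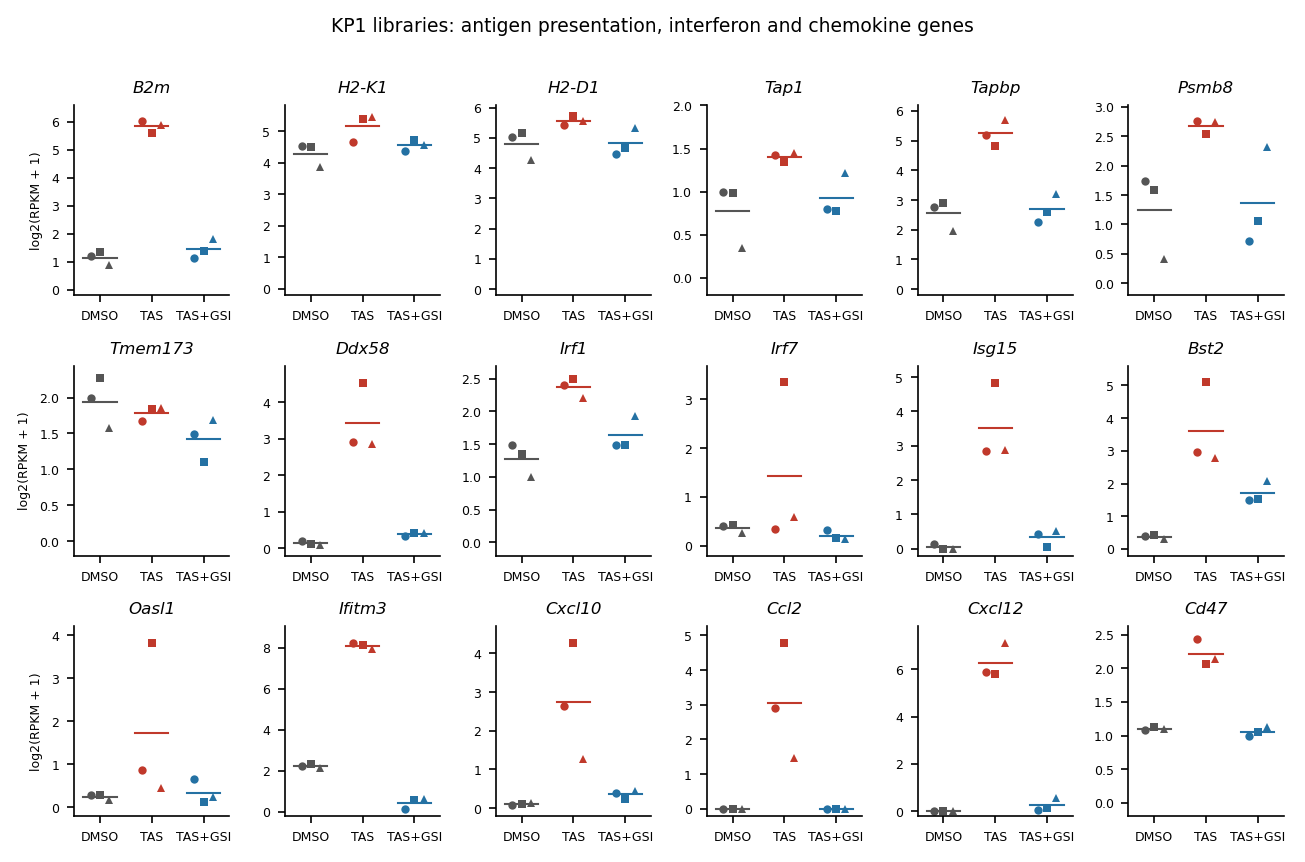
Levels in log2(RPKM + 1) (y axes, each with its own range) of 18 selected antigen presentation, interferon and chemokine genes, chosen with the results known, in the 9 KP1 libraries grouped as DMSO, TAS1440 (TAS) and TAS1440 plus GSI (x axes). Each point is 1 library and the line is the group mean. *B2m*, *Ifitm3* and *Cxcl12* are high in all TAS1440 points, *Irf7* and *Oasl1* are highest in library 5 (square), and the *Tmem173* points overlap.

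*Tmem173*, the gene of the cytosolic DNA sensor adaptor STING, was 1.99, 2.27 and 1.58 with DMSO and 1.67, 1.85 and 1.86 with TAS1440 (log2 fold change -0.16 ± 0.21 (SE), adjusted *P* = 0.591). The groups overlapped, and no difference was detected. Of 20 nucleic acid sensing genes 2 rose and none fell, 9 were tested without a call and 9 were below the filter (median 0.25, or 0.24 without *Ifi204*, listed at 0 in DMSO). The RNA sensor RIG-I, *Ddx58*, was 0.19, 0.12 and 0.082 with DMSO and 2.92, 4.54 and 2.85 with TAS1440 (log2 fold change 3.30 ± 0.38 (SE), adjusted *P* = 0.000136), and *Ifi204*, a DNA-sensing p200 family member, was 0 in all 3 with DMSO and 1.96, 1.09 and 1.46 with TAS1440 (adjusted *P* = 0.000207). *Tbk1* and *Irf3*, the kinase and factor downstream of STING, had log2 fold changes of 0.07, adjusted *P* = 0.753 and 0.09, adjusted *P* = 0.661. The DNA sensor gene *Cgas* was listed but not found under this symbol, and no other symbol was sought.

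Interferon-stimulated genes split by library. Of 49 listed genes 10 rose, 1 fell, 6 were tested without a call and 32 were below the filter, 19 of these with every treated library above every control (16.9% of all genes below the filter). The median of those tested was 1.09. *Ifitm3*, an antiviral membrane protein, was 2.24, 2.34 and 2.16 with DMSO and 8.21, 8.11 and 7.92 with TAS1440 (log2 fold change 5.84 ± 0.18 (SE), adjusted *P* = 2.1e-07), about equal in the 3 treated libraries. *Isg15*, a ubiquitin-like modifier, was 0.12, 0 and 0 with DMSO and 2.84, 4.84 and 2.87 with TAS1440 (log2 fold change 3.48 ± 0.46 (SE), adjusted *P* = 0.000312), and *Bst2*, encoding tetherin, was 0.41, 0.42 and 0.31 with DMSO and 2.98, 5.10 and 2.78 with TAS1440 (log2 fold change 3.23 ± 0.52 (SE), adjusted *P* = 0.00103). Both were highest in library 5. *Uba7*, which activates ISG15, and *Irgm1* rose by 2.10 and 1.93.

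Several core interferon-response genes were high in library 5 and much lower in the other treated libraries. *Irf7*, the factor that amplifies the type I response, was 0.39, 0.42 and 0.27 with DMSO and 0.35, 3.35 and 0.58 with TAS1440. *Oasl1* was 0.28, 0.30 and 0.17 with DMSO and 0.87, 3.83 and 0.46 with TAS1440, *Rsad2*, encoding viperin, was 0.54, 0.44 and 0.34 with DMSO and 0.54, 2.34 and 0.11 with TAS1440, and *Irf9* was 1.73, 1.62 and 1.54 with DMSO and 1.41, 3.06 and 0.96 with TAS1440 (adjusted *P* = 0.774). Library 5 was the only treated library clearly above the controls for *Irf7*, *Rsad2* and *Irf9*, and none of the 4 was called. Among the DMSO and TAS1440 libraries, *Irf7*, *Oasl1* and *Rsad2* reached the filter's value of 1 only in library 5. The missing call does not show that they were unaffected. *Cmpk2*, a mitochondrial nucleotide kinase of the response, fell (2.04, 2.14 and 1.97 with DMSO and 0.33, 1.31 and 0.74 with TAS1440, log2 fold change -1.26 ± 0.22 (SE), adjusted *P* = 0.00174). *Isg15*, *Bst2* and *Ddx58* remained called without library 5. Among 19 receptor and signaling genes 2 rose, the receptor chain *Ifngr2* (0.63, 0.51 and 0.45 with DMSO and 2.13, 1.84 and 2.39 with TAS1440, log2 fold change 1.59 ± 0.14 (SE), adjusted *P* = 3.34e-05) and *Irf1* (1.49, 1.35 and 1.01 with DMSO and 2.40, 2.50 and 2.20 with TAS1440, log2 fold change 1.09 ± 0.18 (SE), adjusted *P* = 0.00121, was not called without library 3), and 1, *Socs3*, fell with overlapping groups (4.58, 4.61 and 3.31 with DMSO and 3.19, 2.92 and 3.37 with TAS1440, log2 fold change -1.01 ± 0.34 (SE), adjusted *P* = 0.0459, was not called without library 1, 2, 4, 5 or 6, with no filter or with only the 2 groups fitted).

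Of 30 chemokines and cytokines 7 rose, none fell, and 21 were below the filter, 10 of these with every treated library above every control (16.9% of all genes below the filter). The median of those tested was 2.63, or 2.92 without *Ccl2*, *Ccl7* and *Cxcl1*, listed at 0 in DMSO. *Cxcl12*, a T cell and stem cell attractant, was 0.013, 0.013 and 0.015 with DMSO and 5.87, 5.81 and 7.09 with TAS1440 (log2 fold change 6.25 ± 0.31 (SE), adjusted *P* = 1.58e-06), and the macrophage growth factor *Csf1* was 0.26, 0.19 and 0.036 with DMSO and 5.47, 5.28 and 3.81 with TAS1440 (log2 fold change 4.69 ± 0.37 (SE), adjusted *P* = 1.48e-05). *Cxcl10*, an interferon-inducible T cell attractant, was 0.077, 0.11 and 0.13 with DMSO and 2.65, 4.27 and 1.27 with TAS1440 (log2 fold change 2.63 ± 0.58 (SE), adjusted *P* = 0.00631), and *Cx3cl1* rose by 3.20. *Cxcl10* was highest in library 5 and lowest in library 6. *Ccl2*, a monocyte attractant, was 0 in all 3 with DMSO and 2.91, 4.77 and 1.47 with TAS1440 (adjusted *P* = 0.00472), and *Ccl5* was 0 in all 3 with DMSO and 1.11, 1.68 and 0.54 with TAS1440, below the filter. *Tslp* reached 0.19, 3.78 and 0.076, with DMSO values of 0 in all 3.

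For ligands read by T and NK cells, 3 of 28 rose and none fell (median 0.17), 10.7% called beside 8.39% of all genes in the table. Another 18 were below the filter. Of these, 9 had every treated library above every control and 2 every treated library below. The shares of all genes below the filter were 16.9% and 20.6%. The phagocytosis checkpoint *Cd47* was 1.08, 1.12 and 1.09 with DMSO and 2.43, 2.07 and 2.14 with TAS1440 (log2 fold change 1.11 ± 0.12 (SE), adjusted *P* = 0.000122), the adhesion ligand *Icam1* was 0.048, 0.066 and 0.015 with DMSO and 1.82, 1.78 and 2.23 with TAS1440 (log2 fold change 1.90 ± 0.14 (SE), adjusted *P* = 9.81e-06), and *Pvr*, read by TIGIT and DNAM-1, was 0.22, 0.16 and 0.099 with DMSO and 1.80, 2.69 and 1.64 with TAS1440 (log2 fold change 1.89 ± 0.26 (SE), adjusted *P* = 0.000414). *Cd274*, encoding PD-L1, was 0.096, 0.097 and 0.057 with DMSO and 0.24, 0.44 and 0.077 with TAS1440, below the filter. In the NF-κB list 3 of 19 rose: *Nfkb2*, *Bcl3* and the inhibitor *Nfkbia*, by 2.43, 2.43 and 2.04. Below the filter were 7 members, 6 of them with every treated library above every control. *Rela* had 2.81, 2.74 and 2.61 with DMSO and 3.81, 3.70 and 2.93 with TAS1440 (log2 fold change 0.76 ± 0.22 (SE), adjusted *P* = 0.025), short of the fold limit. Of 11 AP-1 genes *Junb*, *Fosl2* and *Fos* rose, by 3.01, 2.18 and 1.71 (*Fos* was not called without library 1 or 2), and *Jun* was not called (-0.40, adjusted *P* = 0.594). Complement genes counted 4 of 14 higher and none lower, among them *C4b* (1.65, 1.42 and 0.11 with DMSO and 4.22, 4.78 and 1.99 with TAS1440, log2 fold change 2.60 ± 0.69 (SE), adjusted *P* = 0.016, was not called without library 3, 4 or 5) and *C1ra* (log2 fold change 2.09 ± 0.33 (SE), adjusted *P* = 0.000918). *Masp1* and *Clu* rose by 1.91 and 1.45.

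Few proliferation genes were called. Of 32 cell cycle genes 29 were tested without a call, 2 fell and none rose (median -0.04), 6.25% called against 8.39% of all genes in the table. With 31 of the 32 tested, the closer comparison is the 18.8% called among all genes tested. *Pcna*, the replication clamp, was 8.41, 8.44 and 8.56 with DMSO and 8.09, 8.31 and 8.59 with TAS1440 (log2 fold change -0.15 ± 0.17 (SE), adjusted *P* = 0.548), and *Top2a* was 4.03, 3.99 and 4.83 with DMSO and 3.69, 4.54 and 4.37 with TAS1440 (log2 fold change -0.08 ± 0.46 (SE), adjusted *P* = 0.906). *Mki67* was 4.27, 4.15 and 4.88 with DMSO and 3.11, 3.68 and 3.59 with TAS1440 (log2 fold change -0.97 ± 0.53 (SE), adjusted *P* = 0.181), lower in each treated library but not called. *E2f2* and *Ccne2* were the members that fell (-1.94 and -1.04), and *Ccne2* was not called without library 1, 2, 3, 4 or 5 or with no filter.

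G1 regulators and MYC family genes moved in both directions. Of 18 cyclin D, CDK inhibitor, RB and p53 family genes 4 rose, among them *Ccnd1* above, and 1 fell, with a median of 0.11 (0.07 without *Ccnd2*, listed at 0 in DMSO). *Ccnd2* was 0 in all 3 with DMSO and 2.84, 4.04 and 3.47 with TAS1440 (adjusted *P* = 9.23e-06), and *Cdk6*, a partner of D cyclins, was 0.72, 0.75 and 0.71 with DMSO and 3.43, 5.45 and 3.25 with TAS1440 (log2 fold change 3.32 ± 0.53 (SE), adjusted *P* = 0.000992), while *Cdk4* was not called (0.15, adjusted *P* = 0.614). *Cdkn2a*, which encodes the CDK4/6 inhibitor p16 and the p53 activator p19Arf, rose (3.11, 3.28 and 3.55 with DMSO and 4.82, 4.65 and 5.37 with TAS1440, log2 fold change 1.63 ± 0.26 (SE), adjusted *P* = 0.00103), and *Cdkn1c* fell (-1.88). *Mycl*, the MYC family member of classic SCLC, was 12.92, 13.01 and 12.37 with DMSO and 9.76, 10.46 and 10.06 with TAS1440 (log2 fold change -2.67 ± 0.35 (SE), adjusted *P* = 0.000292). *Mycn* fell as well (1.88, 1.92 and 0.61 with DMSO and 0.059, 0 and 0.35 with TAS1440, log2 fold change -1.33 ± 0.40 (SE), adjusted *P* = 0.0275, was not called without library 1, 2, 4 or 5 or with no filter), while *Myc* rose as given above. *Max*, the shared partner, was not called (0.13, adjusted *P* = 0.426). On this per-length scale *Mycl* was still above *Myc* and *Mycn* in every treated library.

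Among cell death genes 8.7% were called, near the 8.39% of all genes. The share was 20.0% for glycolysis and hypoxia genes and 11.8% for PRC2 and DNA methylation genes. Of 23 cell death genes *Bak1*, a pore-forming BCL2 family member, rose (1.81, 1.73 and 2.16 with DMSO and 3.21, 3.47 and 3.74 with TAS1440, log2 fold change 1.58 ± 0.21 (SE), adjusted *P* = 0.00038) and *Bmf* fell (-1.36). None of 18 cholesterol synthesis genes was called (median 0.01), and of 20 glycolysis and hypoxia genes 2 rose (*Eno1*, 2.06, and *Ndrg1*, 1.28) and 2 fell (*Ankrd37*, -2.16, and *Bnip3*, -1.30, was not called without library 1, 2, 3, 4 or 5, with no filter or with only the 2 groups fitted). *Eno1* has close pseudogene copies, so its value is uncertain. Of 17 PRC2 and DNA methylation genes 2 fell and none rose: the PRC2 recruiter *Jarid2* was 5.29, 5.21 and 5.30 with DMSO and 3.18, 3.15 and 3.27 with TAS1440 (log2 fold change -2.07 ± 0.25 (SE), adjusted *P* = 0.000192) and the DNA methyltransferase *Dnmt3a* was 2.94, 3.00 and 3.04 with DMSO and 2.15, 1.56 and 1.81 with TAS1440 (log2 fold change -1.16 ± 0.16 (SE), adjusted *P* = 0.000471). *Ezh2*, the PRC2 methyltransferase, was 3.65, 3.66 and 4.02 with DMSO and 3.51, 3.51 and 3.41 with TAS1440 (log2 fold change -0.30 ± 0.26 (SE), adjusted *P* = 0.406).

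The group given TAS1440 plus GSI had the same drug together with a γ-secretase inhibitor, and Notch cleavage was not measured in these data. The authors state that such inhibitors also act on other membrane proteins, and for this reason they also studied *Notch1*-knockout KP1 cells. Between TAS1440 and TAS1440 plus GSI, 1363 of 8260 genes (16.5%) were called, and the GSI libraries had *r* of 0.926 to 0.970 with DMSO and 0.744 to 0.797 with TAS1440. This comparison and that with DMSO use the same TAS1440 libraries, so levels are set side by side without a count in common. *Vim* was 11.32, 10.85 and 11.35 with TAS1440, 1.73, 2.84 and 4.40 with TAS1440 plus GSI and 0.63, 1.04 and 0.62 with DMSO (TAS1440 minus TAS1440 plus GSI 8.18 ± 0.55 (SE), adjusted *P* = 9.69e-06), and *Snai2* was 7.02, 5.83 and 6.62 with TAS1440, 2.73, 2.67 and 2.32 with TAS1440 plus GSI and 0.94, 0.95 and 0.91 with DMSO (3.91 ± 0.28 (SE), adjusted *P* = 1.18e-05). *Nkx2-1* was 2.41, 2.28 and 3.39 with TAS1440, 7.06, 7.00 and 6.59 with TAS1440 plus GSI and 6.46, 6.41 and 6.38 with DMSO (-4.19 ± 0.29 (SE), adjusted *P* = 1.04e-05), and *Hes1* was 4.64, 5.42 and 5.33 with TAS1440, 0.95, 0.86 and 1.31 with TAS1440 plus GSI and 0.87, 0.93 and 0.56 with DMSO (4.09 ± 0.23 (SE), adjusted *P* = 4.24e-06). For *Nkx2-1*, *Hes1* and *Notch2* (0.36, 0.48 and 0.33 with GSI) the GSI levels lay near those of DMSO, while *Vim* and *Snai2* lay between.

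Other genes lay between the groups or apart from both. *Rest* was 2.48, 1.99 and 1.65 with TAS1440, 0.99, 0.72 and 1.02 with TAS1440 plus GSI and 0.034, 0.025 and 0.033 with DMSO (1.13 ± 0.19 (SE), adjusted *P* = 0.00169) and *Bst2* was 2.98, 5.10 and 2.78 with TAS1440, 1.51, 1.53 and 2.09 with TAS1440 plus GSI and 0.41, 0.42 and 0.31 with DMSO (1.91 ± 0.52 (SE), adjusted *P* = 0.0194), in both with GSI values above DMSO and below TAS1440 alone. *Cx3cl1* was 4.55, 2.65 and 3.58 with TAS1440, 2.53, 2.39 and 2.14 with TAS1440 plus GSI and 0.46, 0.32 and 0.39 with DMSO (1.24 ± 0.38 (SE), adjusted *P* = 0.0352). *Ifitm3* with GSI (0.14, 0.56 and 0.64) was below its DMSO level (2.24, 2.34 and 2.16), and *Sftpc* stayed low with GSI (0.53, 0.40 and 0.92) against DMSO (3.18, 3.36 and 2.72). *Krt18* was 2.36, 3.83 and 5.29 with TAS1440, 5.01, 4.53 and 4.18 with TAS1440 plus GSI and 6.03, 6.08 and 5.68 with DMSO (-0.75 ± 0.60 (SE), adjusted *P* = 0.382), so TAS1440 with and without GSI were not distinguished. The difference between TAS1440 plus GSI and DMSO was not tested. *B2m* was 6.02, 5.59 and 5.90 with TAS1440, 1.13, 1.39 and 1.80 with TAS1440 plus GSI and 1.21, 1.34 and 0.89 with DMSO (4.40 ± 0.21 (SE), adjusted *P* = 1.76e-06), and *Kdm1a* was 2.94, 2.94 and 2.36 with GSI (-1.22 ± 0.21 (SE), adjusted *P* = 0.00166).

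COR-L88, a human NE SCLC line, was given TAS1440 or DMSO for 28 days in the same series (3 libraries each), which lets the mouse values be read beside a second line. Its table was normalized separately and the difference between lines was not tested. In COR-L88 2991 of 13134 genes were called (22.8%), 67.2% of them higher, a share that was 56.0% after quantile normalization and 57.4% after centering each library on its median. Of 6880 genes tested in both lines under 1 symbol, 601 rose in KP1 and 794 in COR-L88, with 338 in both: 56.2% of the KP1 genes and 42.6% of the COR-L88 genes, where 11.5% of all 6880 rose in COR-L88. Among genes that fell, 573 in KP1 and 430 in COR-L88, 158 were shared, 27.6% and 36.7%, where 6.25% of all fell in COR-L88. Calls in opposite directions were 73 genes that fell in KP1 and rose in COR-L88, 12.7% of those that fell in KP1, and 14 that rose in KP1 and fell in COR-L88, 2.33% of those that rose.

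**Figure D5:**
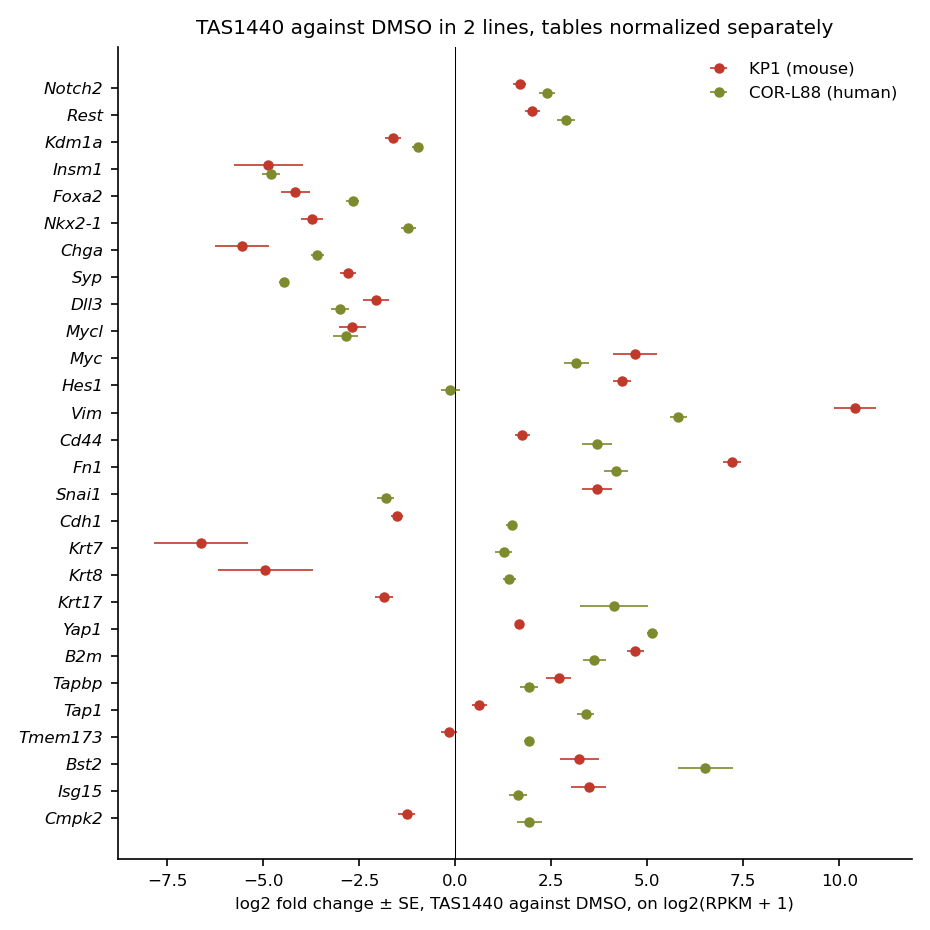
Log2 fold change ± SE on the log2(RPKM + 1) scale (x axis) of 28 genes (y axis, mouse symbols), chosen with the results known, with TAS1440 against DMSO in mouse KP1 (red) and human COR-L88 (green), 3 libraries per group. NE genes lie left of 0 and *Vim*, *Fn1* and *B2m* right of 0 in both lines, while *Snai1*, *Cdh1*, *Krt7*, *Krt8*, *Krt17* and *Cmpk2* lie on opposite sides and *Hes1* and *Tmem173* are near 0 in a single line.

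The NE regulators *Insm1* and *Mycl* had similar values in both lines. *Insm1* had a log2 fold change of -4.87 ± 0.89 in KP1 and -4.79 ± 0.25 in COR-L88, and *Mycl* -2.67 ± 0.35 and -2.85 ± 0.33. The matrix list had medians of 3.44 over the 18 members tested in KP1 and 3.36 over the 23 tested in COR-L88. The members tested differ and were selected by each line's own filter, so these medians do not measure agreement. Other values stood apart: *Hes1* was 4.34 ± 0.23 in KP1 and -0.12 ± 0.24 in COR-L88, *Tmem173* -0.16 ± 0.21 and 1.92 ± 0.14, and *Tap1* 0.63 ± 0.19 and 3.40 ± 0.22. Over the members tested in each line, the cell cycle list had a median of -0.04 in KP1 and -0.89 in COR-L88, and the keratins -1.98 and 1.42.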

How the data were processed

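Poly(A) RNA-Seq was done on the 9 KP1 libraries (stranded mRNA kit, paired-end). The authors used Cutadapt for trimming, STAR for alignment and RSEM for quantification. The authors deposited 1 table of log2(RPKM + 1) values for the mouse line and 1 for the human lines, each TMM-scaled with edgeR on its own (versions not given in the sources used here; the submitters' processing notes name mm10 and hg19). The authors' limma voom test needs counts, so limma 3.58.1 in R 4.3.3 was fitted here to the deposited log2 values, with 1 mean per group over the 9 libraries, a trended prior variance and Benjamini-Hochberg adjustment. Each gene had 1 residual variance for all groups, which assumes equal spread in them. The filter was a value of at least 1 in 3 or more libraries. Called genes had an adjusted *P* below 0.05 and differed by 1 log2 unit or more in either direction. COR-L88 was fitted the same way. Read depth is unknown beyond the relative values given. All *P* values are adjusted ones from limma.

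The fits were also run on simulated data with equal spread in every group, which cannot show how they behave with the unequal spread of these libraries. Alternatives were no filter, a pseudocount of 0.1, quantile normalization, median centering, fitting only the groups compared, no variance trend, and leaving out each library in turn. All 18501 symbols matched GENCODE vM21 on GRCm38, the source of the positions. Named genes were those the study names for KP1, the 15 largest changes in each direction with a higher group mean of at least 2, up to 5 called members per list and direction, and others for their role; some of these genes are not reported here. Members and lists were chosen with earlier results of these data known.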

Additional observations from a re-analysis of the deposited data

Results flagged for a closer look

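Of 6880 genes tested in both lines, 73 fell in KP1 and rose in COR-L88 and 14 did the reverse. The genes named here are those among them in the gene lists or named in the results, with groups that did not overlap in either line. The difference between the lines was not tested, and their tables were normalized separately. The epithelial genes *Krt7*, *Krt8*, *Krt17*, *Cdh1* and *Ocln* had log2 fold changes of -6.62, -4.94, -1.85, -1.51 and -1.01 in KP1 and 1.26, 1.42, 4.14, 1.47 and 1.62 in COR-L88. *Snai1*, the EMT repressor, had 3.69 and -1.81, and *Ddr2*, a collagen receptor, had 1.30 and -1.09. *Ndrg1* had 1.28 and -1.71, *Bmf*, a pro-death BCL2 family member, -1.36 and 1.32, and the interferon-response gene *Cmpk2* -1.26 and 1.94.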

How the results depend on the processing

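The number of genes called between TAS1440 and DMSO was 1552, and 1531 to 2094 over 6 alternatives (no filter, a pseudocount of 0.1, quantile normalization, libraries centered on their medians, only the groups compared, no variance trend) and 1449 to 1635 with any 1 library left out. The corresponding counts were 1289 to 1892 and 1230 to 1462 against TAS1440 plus GSI (1363), and 2982 to 3702 and 2915 to 3072 in COR-L88 (2991). Of 222 named genes with a fitted fold change, 183 had the same call and direction in all 12 alternatives and 39 did not. The calls that were lost are given beside the genes in the results, except that of *Col2a1*, lost without any 1 of the DMSO libraries, with no filter and with only the 2 groups fitted. A call was gained without TAS1440 library 4 by *H2-K1* (1.13) and *Scg2* (-3.51). Without library 5 it was gained by *Tap2* (1.04), *Pdgfra* (2.21), *Emilin1* (4.07), *Hopx* (1.24) and *Nrarp* (-1.56, and -1.21 after quantile normalization). Without library 6 it was gained by *Cldn3* (-1.38), *Mest* (-3.42), *Rela* (1.04), *Sox2* (-1.92) and *Thy1* (-1.23).

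Genes without a call changed sign with 1 library left out, the range of the log2 fold change being -0.023 to 0.41 for *Cpe*, -0.32 to 0.10 for *Hdac1*, -0.65 to 1.24 for *Hopx*, -0.44 to 0.61 for *Irf9*, -0.72 to 0.22 for *Jun*, -0.67 to 0.074 for *Jup*, -0.089 to 0.12 for *Lats1*, -0.24 to 0.11 for *Nf2*, -0.073 to 0.20 for *Tbk1*, -0.34 to 0.0066 for *Tmem173* and -0.25 to 0.19 for *Top2a*. *Hopx* was -0.18 with a pseudocount of 0.1. *Lats1* was -0.027 after quantile normalization and -0.024 after median centering. The cause was not tested. The number of called members moved by over 1.5 times with no filter for Notch receptors (2), with a pseudocount of 0.1 for Notch processing genes (5), nucleic acid sensing (5), interferon signaling (6) and cholesterol synthesis (2), without DMSO library 1 for MHC class I (3), without TAS1440 library 4 for cholesterol synthesis (2; 1 without DMSO library 3 or TAS1440 library 5 or 6), and to 1 for the cell cycle list with no filter or without any DMSO library or TAS1440 library 5.

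No paired analysis was possible because the groups share no library number (1 to 3, 4 to 6 and 7 to 9). With 3 libraries a group and wide spread among the treated, a gene without a call is not shown to be unaffected, and the fold changes of low genes are understated on this scale.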

Other observations

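The genes that varied most among the 3 TAS1440 libraries, chosen after their values were seen, included 2 imprinted growth genes. *Mest* was 4.30, 4.41 and 3.52 with DMSO and 1.02, 0.29 and 6.10 with TAS1440, and *Igf2* was 5.43, 5.55 and 5.32 with DMSO and 5.78, 1.32 and 5.05 with TAS1440. The cartilage collagen *Col2a1* was 0.027, 0.021 and 0.031 with DMSO and 1.34, 1.82 and 6.31 with TAS1440, highest in library 6. *Gpnmb*, a lysosomal and melanocytic glycoprotein, was 0 in all 3 with DMSO and 5.37, 8.10 and 3.62 with TAS1440, and *Ptgs2*, encoding the prostaglandin synthase COX-2, was 0 in all 3 with DMSO and 4.00, 6.62 and 2.55 with TAS1440, both highest in library 5. *Emilin1*, an elastic fiber gene, was 1.43, 1.28 and 0.50 with DMSO and 5.43, 0.83 and 4.85 with TAS1440, within its control range in library 5. No explanation of these differences was tested. Over all 8260 genes tested, 236 (2.86%) ranged over at least 2 log2 units among the TAS1440 libraries, 19 (0.23%) among the DMSO libraries and 50 (0.605%) among the TAS1440 plus GSI libraries.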
